A study of Mus musculus with 6 samples.

Results

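The cytosolic heat shock and chaperonin genes are 52 of the 24318 gene symbols in the deposited table. They were chosen by symbol from a list of HSP90, HSP70, small heat shock protein, J-protein, co-chaperone, CCT chaperonin, prefoldin and heat shock factor genes, and all 52 had a row. The libraries came from CAD cells, a mouse catecholaminergic neuronal cell line. The siCircGigyf2 group (3 libraries) received an siRNA against circGigyf2, a circular RNA of the Gigyf2 gene, and the siNC group (3 libraries) a control siRNA. Both groups are the same line, and the labels give neither the siRNA sequence nor a dose, a time or the origin of the replicates. Spread between libraries of a group may therefore be technical, and the p-values rest on that spread alone.

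Molecular chaperones bind unfolded or partly folded proteins and keep them from aggregating. HSP70 is loaded with substrate by J-proteins, releases it with the help of nucleotide exchange factors such as the BAG proteins and HSP110, and can pass it on to HSP90 through the adaptor protein encoded by Stip1. Actin and tubulin, both abundant in neurons, are folded by the CCT chaperonin, a ring complex that receives them from prefoldin. Heat shock factor 1 (Hsf1) switches on many of these genes under stress by binding heat shock elements in their promoters.

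Levels are in FPKM, a fragment count scaled by transcript length and library size, so absolute depth is unknown. Their sum per library was 604881 to 624645 with the circGigyf2 siRNA and 578627 to 601552 with the control. The 52 members made up 1.42% to 1.47% of it against 1.51% to 1.55%. In FPKM the members themselves summed to 8898 to 8961 against 8948 to 9079, ranges that overlapped. The lower share therefore goes with a larger total and does not show a fall of the members as a set. Steps between low values put the depth of the siCircGigyf2 libraries at 0.802 to 0.913 of that of siNC replicate 1, and of the other siNC libraries at 0.953 and 0.979. The whole-library sums and the depths thus differed with the group, and their part in the results was not tested. Of 15 markers fixed for CAD cells, 13 had a mean of at least 1 FPKM, Ddc was among those below it, and the summed level of the list was 1690 to 1730 against 1690 to 1720 FPKM. The 4 astrocyte markers summed to at most 0.0676 FPKM, with Aqp4, Slc1a3 and Aldh1l1 listed at 0 in all 6 libraries. The 4 microglia markers summed to at most 0.304 FPKM, the 4 oligodendrocyte markers to at most 1.26 and the 4 fibroblast markers to at most 4.13. Gigyf2, which gives only a weak check of the knockdown because the table does not separate circular from linear RNA, was at 21.8, 21.1 and 21.3 FPKM in replicates 1 to 3 of siCircGigyf2 against 23.2, 23.1 and 23.2 FPKM in siNC. Its log2 difference of -0.11 (limma adjusted p = 0.0287) was lost in 6 of 14 alternatives, among them siCircGigyf2 replicate 2 or 3, or any siNC library, left out (0.0659 to 0.0845).

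The chaperone genes differed widely in level. FPKM are per length, so levels can be set side by side between genes. Hspa8, which encodes the constitutive HSP70 of the cytosol, had the highest mean in siNC at 2136 FPKM, followed by Hsp90ab1, the constitutive HSP90, at 1533 FPKM. Next came Cct2 at 541 FPKM and Ptges3, which encodes the HSP90 co-chaperone p23, at 437 FPKM. Neighbours further down often did not differ beyond their spread: Cct6a at 312.7 ± 7.06 and the stress-responsive HSP90 gene Hsp90aa1 at 310.0 ± 10.5 FPKM (SD, n = 3) were one such pair, and Fkbp4 (116.5 ± 0.430), Bag3 (115.6 ± 2.87) and Cct3 (115.2 ± 3.83) another run. At the bottom, below the limit for testing, stood Dnaja4 and 3 genes known for induction under stress, although other stress-responsive members such as Hsp90aa1, Bag3, Hsph1 and Dnajb1 lay well above them. Hspa1a, an inducible HSP70 gene, had 0.0975, 0.0537 and 0.0612 FPKM with the circGigyf2 siRNA against 0.147, 0.0167 and 0.0858 with the control. Its near-identical neighbour Hspa1b was listed at 0.102 to 0.178 against 0.103 to 0.130 FPKM, and the small heat shock protein gene Hspb1 at 0.160 to 0.509 against 0.0705 to 0.334 FPKM. All of these ranges overlapped between the groups. How reads shared by near-identical genes were counted was not given, so the values of Hspa1a and Hspa1b are uncertain, and processed pseudogenes make the same true of abundant members such as Hspa8, Hsp90ab1 and the chaperonin genes.

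**Figure D1:**
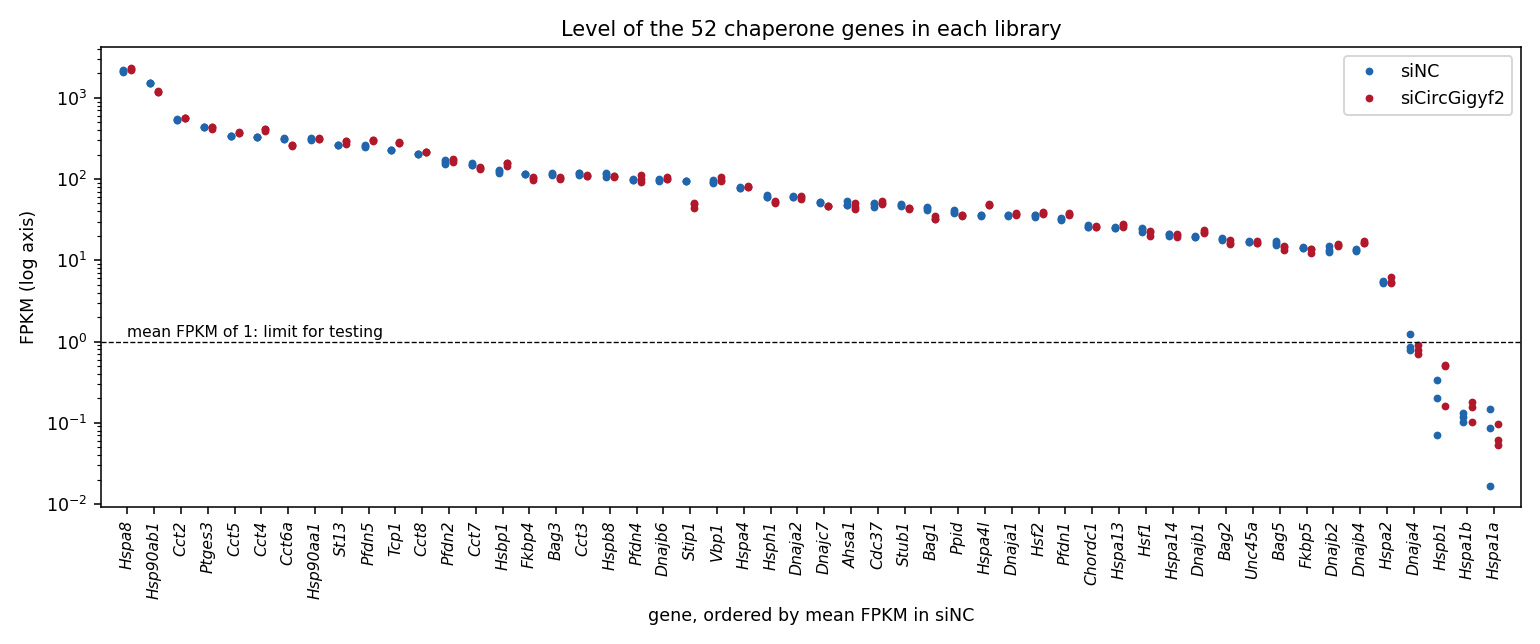
FPKM of the 52 chaperone genes on a log axis, ordered by their mean in siNC, with 1 point for each of the 3 libraries of a group. Hspa8 and Hsp90ab1 lie highest, 4 genes lie below the mean of 1 FPKM needed for testing, and the points of Stip1, Hsp90ab1 and Hspa4l separate by group.

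The comparison of siCircGigyf2 with siNC used log2(FPKM + 1) for genes with a mean of at least 1 FPKM, which 48 members reached. Hspa1a, Hspa1b, Hspb1 and Dnaja4 did not and were not tested. Of the 48, 13 rose and 12 fell at a limma adjusted p below 0.05 (Benjamini-Hochberg over all 11420 genes tested), and 23 did not pass. That is 52.1% of the members, where 38.2% of all genes tested passed, 19.5% as higher and 18.7% as lower. All 48 members also had a mean of at least 5 FPKM, whereas the genes tested include lower ones. The shares are therefore not from like levels. Quantile normalization gave 9 higher and 15 lower members. The median log2 difference of the members was 0.0093, against 0.00035 for all genes tested, and their median absolute difference was 0.127 against 0.122. Only Stip1 passed with a difference of at least 1.5-fold, as did 160 of all genes tested. The groups did not overlap for 31 members, 17 higher and 14 lower, where the background was 51.0% of all genes tested. In bulk RNA, a change in the mix of cell states and a change in RNA per cell cannot be told apart.

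**Figure D2:**
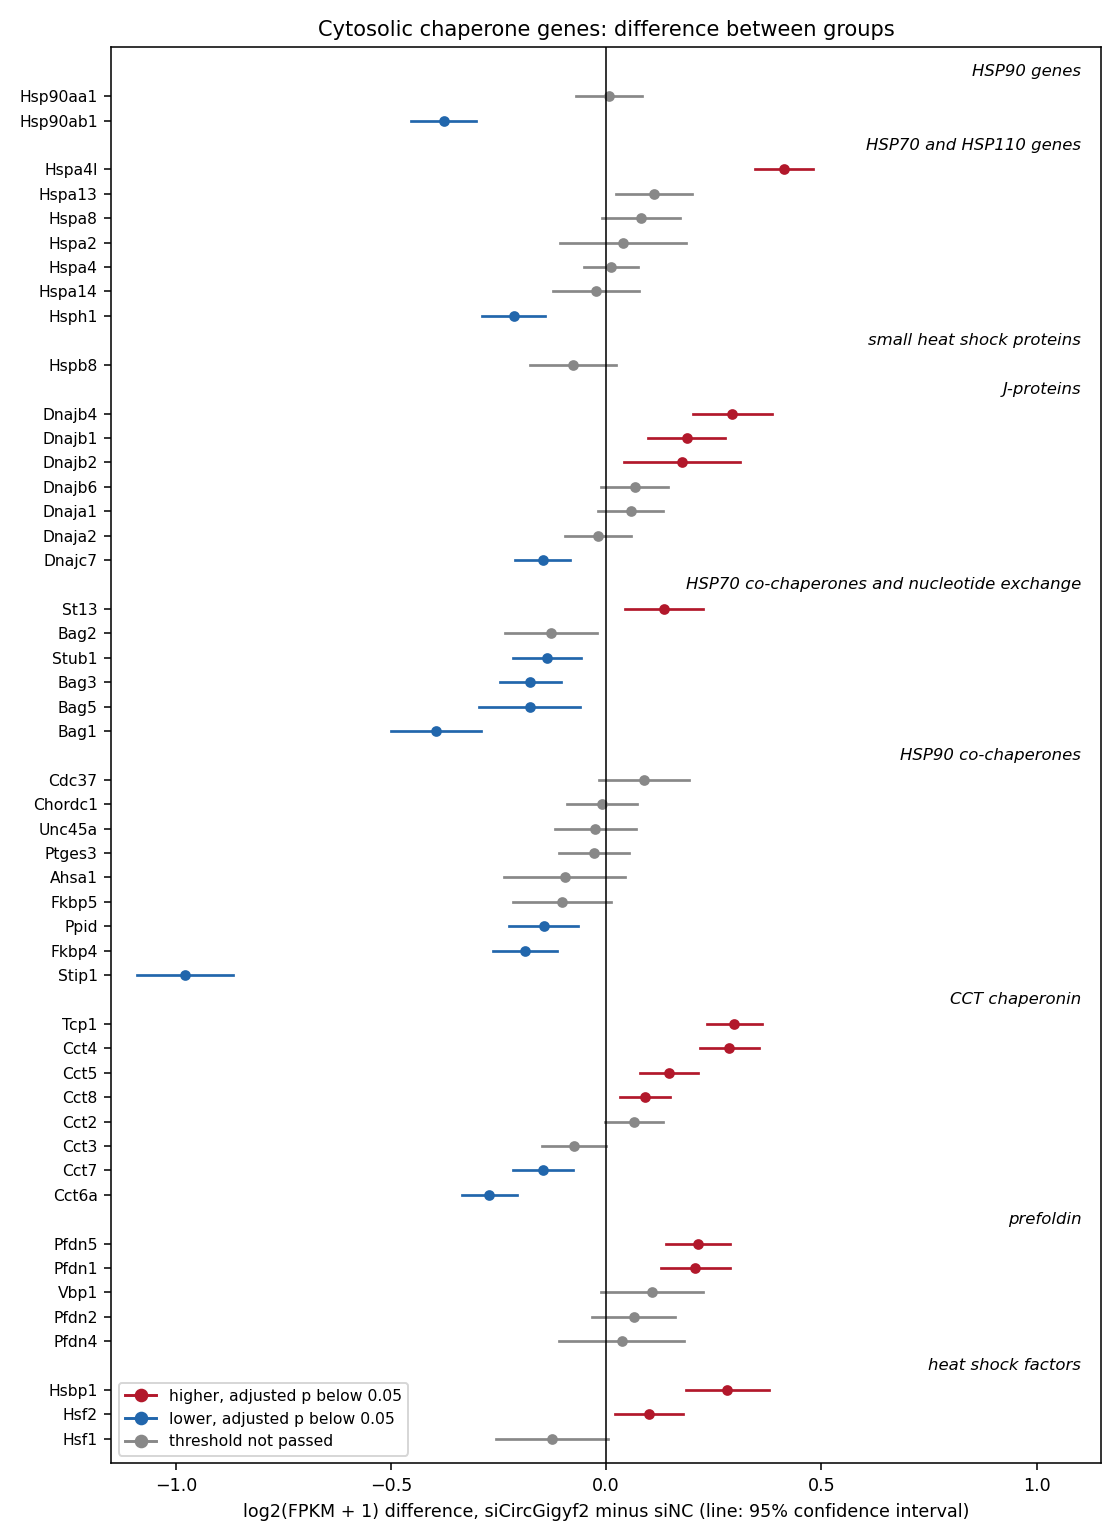
Difference in log2(FPKM + 1), siCircGigyf2 minus siNC, for the 48 tested chaperone genes by role, with the 95% confidence interval of limma as a line. Stip1 stands furthest from 0 at -0.98, the chaperonin genes fall on both sides of 0, and 3 of the 9 HSP90 co-chaperone genes passed below 0 and 2 of the 5 prefoldin genes above it.

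Of the 2 cytosolic HSP90 genes, Hsp90ab1 fell and Hsp90aa1 did not pass. In replicates 1 to 3, Hsp90ab1 had 1167, 1171 and 1202 FPKM with the circGigyf2 siRNA against 1529, 1542 and 1527 FPKM with the control, the order used for all genes that follow. All treated libraries lay below all controls, and the log2 difference was -0.38 (SE 0.0333, adjusted p = 7.14e-05). Hsp90aa1, its paralog, was listed at 319, 308 and 307 against 300.4, 321 and 308 FPKM. Those groups overlapped, with a log2 difference of 0.01 and a 95% interval from -0.07 to 0.08 (adjusted p = 0.887). The summed level of both genes was 1491 ± 15.9 against 1843 ± 18.1 FPKM (SD, n = 3). Within each library Hsp90ab1 was 3.79 ± 0.125 times as abundant as Hsp90aa1 with the circGigyf2 siRNA and 4.95 ± 0.145 times with the control (n = 3). The 3 ratios of one group all lay below the 3 of the other, and the exact two-sided permutation p of 0.10 is the smallest that 3 libraries against 3 allow. It was 0.12 adjusted over 6 pairs of related genes, which were picked after their values were seen.

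Stip1 showed the largest difference of all members. Its product, also called HOP, carries separate docking domains for HSP70 and HSP90. Its levels were 43.7, 48.9 and 50.5 against 94.7, 95.5 and 94.3 FPKM. The ratio of the means was 0.503, the groups were far apart, and the control values lay close together. The log2 difference was -0.98 (SE 0.0490, 95% interval -1.09 to -0.87, adjusted p = 7.86e-06).

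The 3' UTR of Stip1 was also the only one among the 51 members searched to hold the bases GCCTACA, a heptamer that earlier work on these same differences picked out among the falls, so its presence here supports nothing about them. Of all genes tested and searched (10605), 6.40% held it, and 1.37% held the longer GCCTACAA that Stip1 has. Among the 89 other chaperone and heat shock response genes described below, 5 of the 3' UTRs held the heptamer. The sites are shown for the tested genes that hold them. Each line gives 30 bases of the sense strand from GENCODE M21 on GRCm38, with the site in capitals:
Stip1 (chr19:7020967-7020996, minus strand): tatttatacatGCCTACAAggaagacagac
Hspd1 (chr1:55078083-55078112, minus strand): tcattgtccatGCCTACAgataatttattt
Hspa12a (chr19:58798817-58798846, minus strand): gggagaagaccGCCTACAccaggcaccatg
Sqstm1 (chr11:50200328-50200357, minus strand): ggcaggcagggGCCTACAgctcctagggaa
Tsc1 (chr2:28687590-28687619, plus strand): aggaggatagaGCCTACAgagctgtcttta

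The Stip1 site starts 113 bases after the stop codon in a 3' UTR of 397 bases. Hspd1, the mitochondrial chaperonin gene, averaged 86.4 ± 3.07 against 151 ± 3.29 FPKM (SD, n = 3) and fell by 0.80 (adjusted p = 3.91e-06), and Hspa12a, a distant relative of HSP70, fell by 0.27 (adjusted p = 0.00487). Tsc1, an HSP90 co-chaperone better known as a growth regulator, rose by 0.16 (adjusted p = 0.0364), a call lost in 7 of 14 alternatives, among them each siNC library left out in turn (0.0655 to 0.102), siCircGigyf2 replicate 1 left out (0.108) and siCircGigyf2 replicate 2 left out (0.0746). The autophagy receptor gene Sqstm1 had a difference of 0.04 that did not pass (adjusted p = 0.302). Dnajb13, the fifth gene with the heptamer, was below the limit for testing.

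Of the 9 HSP90 co-chaperone genes among the members, 3 fell and 0 rose, and 6 did not pass. The 33.3% that changed is below the 38.2% of all genes tested. Besides Stip1, the immunophilin gene Fkbp4 fell by 0.19 (SE 0.0330, adjusted p = 0.00214), with 98.0, 102.5 and 105.8 against 116.5, 116.1 and 116.9 FPKM. The cyclophilin gene Ppid fell by 0.14 (SE 0.0353, adjusted p = 0.0112), with 35.2, 35.9 and 36.2 against 39.2, 41.2 and 38.5 FPKM. Both genes were below every control in all 3 treated libraries. Fkbp5, the glucocorticoid-induced relative of Fkbp4, also had groups that did not overlap (12.2 to 13.8 against 14.1 to 14.4 FPKM), but its difference of -0.10 did not pass (adjusted p = 0.138). Ahsa1, which stimulates the HSP90 ATPase, averaged 46.4 ± 3.83 against 49.6 ± 3.07 FPKM (adjusted p = 0.249, or 0.0466 without siCircGigyf2 replicate 2). Cdc37, which brings kinases to HSP90, averaged 51.4 ± 1.84 against 48.4 ± 2.83 FPKM, a difference of 0.09 that did not pass. Ptges3 averaged 429 ± 17.6 against 437 ± 3.84 FPKM, with an interval from -0.11 to 0.05, and passed as lower only after quantile normalization (adjusted p = 0.0136). The myosin chaperone gene Unc45a and the zinc-binding co-chaperone gene Chordc1 differed by -0.03 and -0.01, with intervals from -0.12 to 0.07 and from -0.09 to 0.07. Summed over the 9 genes, the level was 768 ± 12.7 against 844 ± 3.19 FPKM.

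**Figure D3:**
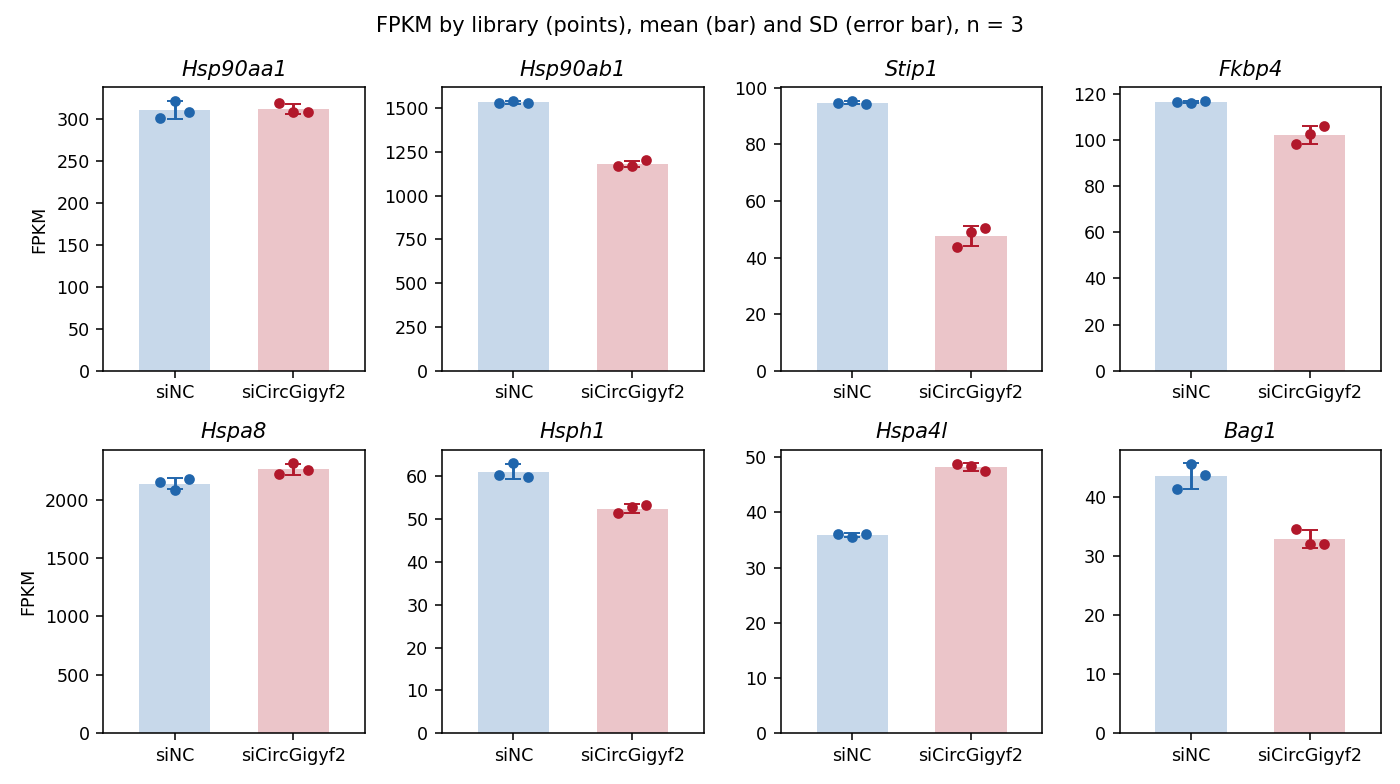
FPKM of 8 chaperone genes in each library (points), with the group mean as a bar from 0 and the SD as an error bar. Stip1, Hsp90ab1, Fkbp4, Hsph1 and Bag1 are lower in all 3 siCircGigyf2 libraries, Hspa4l is higher, Hsp90aa1 overlaps and Hspa8 lies slightly higher without passing the test.

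HSP70 genes differed little, apart from a pair of HSP110 relatives that moved in opposite directions. Hspa8 was listed at 2216, 2310 and 2250 against 2151, 2082 and 2176 FPKM. The groups did not overlap, yet the log2 difference of 0.08 did not pass (95% interval -0.01 to 0.17, adjusted p = 0.142), and it was -0.0055 after quantile normalization. Hspa4l, an HSP110-type exchange factor gene, rose by 0.41 (SE 0.0295, adjusted p = 2.95e-05), with 48.8, 48.3 and 47.4 against 36.1, 35.5 and 36.1 FPKM. This was the largest rise among the members, and the groups were far apart relative to their spread. Its paralog Hspa4 was at 79.1, 79.7 and 81.0 against 78.6, 80.7 and 78.5 FPKM, with an interval from -0.05 to 0.07. The ratio of Hspa4l to Hspa4 was 0.603 ± 0.0159 against 0.453 ± 0.0118 (SD, n = 3; exact permutation p = 0.10, the smallest possible). Hsph1, the HSP110 gene HSP105, fell by 0.22 (SE 0.0324, adjusted p = 0.00100), with 51.4, 52.8 and 53.2 against 60.4, 63.0 and 59.7 FPKM. Hspa13, of a microsome-associated HSP70, averaged 27.2 ± 1.12 against 25.1 ± 0.500 FPKM and did not pass (adjusted p = 0.0525, or 0.0245 without siCircGigyf2 replicate 3 and 0.0441 with a filter of 5 FPKM). Hspa2, known for its part in sperm development, averaged 5.61 ± 0.493 against 5.42 ± 0.107 FPKM and the ribosome-associated Hspa14 20.2 ± 0.8 against 20.6 ± 0.766 FPKM. Both overlapped between groups and did not pass (adjusted p = 0.663 and 0.700), as did the small heat shock protein gene Hspb8 at 107.4 ± 0.681 against 113.4 ± 7.29 FPKM (adjusted p = 0.203, or 0.0168 without siNC replicate 2).

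J-proteins start the HSP70 cycle by stimulating its ATPase. Of the 7 tested genes, 3 rose and 1 fell, where 19.5% of all genes tested rose and 18.7% fell. Dnajb4 rose by 0.29 (SE 0.0401, adjusted p = 0.000611), with 17.2, 16.4 and 16.4 against 13.7, 13.5 and 13.1 FPKM. Dnajb1, the main stress-responsive partner of HSP70, rose by 0.19 (SE 0.0394, adjusted p = 0.00557), with 23.3, 21.4 and 22.6 against 19.5, 19.5 and 19.7 FPKM. Both had all treated libraries above all controls. Dnajb2, a neuronal J-protein gene, was at 14.8, 16.0 and 15.5 against 12.6, 14.8 and 13.4 FPKM, so that siCircGigyf2 replicate 1 and siNC replicate 2 nearly touched. It rose by 0.18 (adjusted p = 0.0428), but the call was lost in 7 of 14 alternatives, including without siCircGigyf2 replicate 2 (0.117) or 3 (0.0961) and without siNC replicate 1 (0.139) or 3 (0.108). Dnajc7, whose product holds both a J domain and the type of docking domain found in Stip1, fell by 0.15 (SE 0.0281, adjusted p = 0.00348), with 46.5, 46.3 and 46.5 against 51.99, 50.7 and 51.8 FPKM. Dnaja1, Dnaja2 and Dnajb6 did not pass, at 37.2 ± 0.993 against 35.8 ± 0.706, 59.5 ± 2.06 against 60.3 ± 0.900 and 101.6 ± 3.85 against 97.0 ± 1.62 FPKM. Dnaja4 was listed at 0.698 to 0.900 against 0.788 to 1.24 FPKM.

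Of the 6 genes listed as co-chaperones acting on bound HSP70, 4 fell and 1 rose, where 18.7% of all genes tested fell and 19.5% rose. Calls of 3 of these genes, Stub1, Bag5 and St13, were lost in some alternatives, and no test compared the list with the J-proteins. Bag1, an exchange factor gene linking HSP70 to the proteasome, was at 34.6, 31.9 and 31.9 against 41.3, 45.6 and 43.6 FPKM and fell by 0.40 (SE 0.0464, adjusted p = 0.000272). Bag3, which directs clients to selective autophagy, was at 102.1, 99.9 and 104.6 against 116.1, 112.5 and 118.2 FPKM and fell by 0.18 (SE 0.0314, adjusted p = 0.00238). For both, the groups stood apart by more than the range of either. Stub1, the gene of the ubiquitin ligase CHIP, fell by 0.14 (adjusted p = 0.0135, or 0.0549 without siNC replicate 3). Bag5 fell by 0.18 (adjusted p = 0.0249), a call lost with the replicate number as a block (0.0538), without a filter (0.0541), and without siCircGigyf2 replicate 3 (0.0779), siNC replicate 1 (0.0555) or siNC replicate 3 (0.0885). Bag2, an inhibitor of CHIP, averaged 16.6 ± 0.784 against 18.3 ± 0.741 FPKM and did not pass (adjusted p = 0.0603), but did so as lower without siCircGigyf2 replicate 1 (0.0324), after quantile normalization (0.0412) and with a filter of 5 FPKM (0.0490). St13, the HSP70-interacting protein HIP that slows substrate release, was the member that rose, at 296, 269 and 295 against 261, 260 and 261 FPKM. Its rise of 0.13 (adjusted p = 0.0266) was lost in 7 of 14 alternatives, among them siCircGigyf2 replicate 1 (0.0875) or 3 (0.0889) and any siNC library (0.0625 to 0.0697) left out.

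The 8 subunit genes of the CCT chaperonin, each of which contributes one position to a ring, did not move together. Tcp1 (the alpha subunit) was at 279, 287 and 276 against 231, 227 and 226 FPKM and rose by 0.30 (SE 0.0283, adjusted p = 0.000101). Cct4 was at 408, 408 and 390.5 against 329, 326 and 334 FPKM and rose by 0.29 (SE 0.0304, adjusted p = 0.000165). Cct6a went the other way at 259, 258 and 259 against 307, 311 and 320.5 FPKM, a fall of 0.27 (SE 0.0284, adjusted p = 0.000159). In all 3 genes the treated and control libraries were well separated. Cct7 fell by 0.15 (SE 0.0309, adjusted p = 0.00576), with 136, 135 and 141 against 149, 151 and 155 FPKM. Cct5 rose by 0.15 (SE 0.0299, adjusted p = 0.00497), with 366, 385 and 373 against 336, 341 and 338 FPKM, and Cct8 by 0.09 (SE 0.0259, adjusted p = 0.0227), with 214, 216 and 217 against 201, 202 and 205 FPKM. After quantile normalization neither rise passed (adjusted p = 0.0559 for Cct5 and 0.319 for Cct8). Cct8 was also lost without a variance trend (0.0717), and without siCircGigyf2 replicate 3 (0.0675), siNC replicate 1 (0.0928) or siNC replicate 2 (0.0523). Cct2 and Cct3 did not pass, with differences of 0.07 and -0.07 and intervals from -0.0020 to 0.13 and from -0.15 to 0.00045, and Cct3 passed as lower after quantile normalization (0.0450).

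As a sum, the chaperonin genes were at 2344 ± 9.98 FPKM with the circGigyf2 siRNA and at 2219 ± 25.3 FPKM with the control (SD, n = 3). The FPKM sum of all genes was also higher in every siCircGigyf2 library than in any control, and its part in this difference was not tested. Transcript levels of the subunits were unequal in both groups. Cct2 held 24.1% ± 0.393 of the summed FPKM against 24.4% ± 0.200, and Cct3 the least, 4.66% ± 0.101 against 5.19% ± 0.139. The share of Cct6a was 11.04% ± 0.0674 against 14.1% ± 0.160, whereas that of Cct4 was 17.2% ± 0.397 against 14.9% ± 0.0858 and that of Tcp1 11.97% ± 0.199 against 10.3% ± 0.202. Shares of 6 of the 8 subunits did not overlap between the groups, and those of Cct2 and Cct8 did. Cct3 is among the 6, although its FPKM overlapped. No background was computed for such shares, and by FPKM the groups did not overlap for 51.0% of all genes tested. A share within the complex cannot tell a rise of one subunit from a fall of another.

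**Figure D4:**
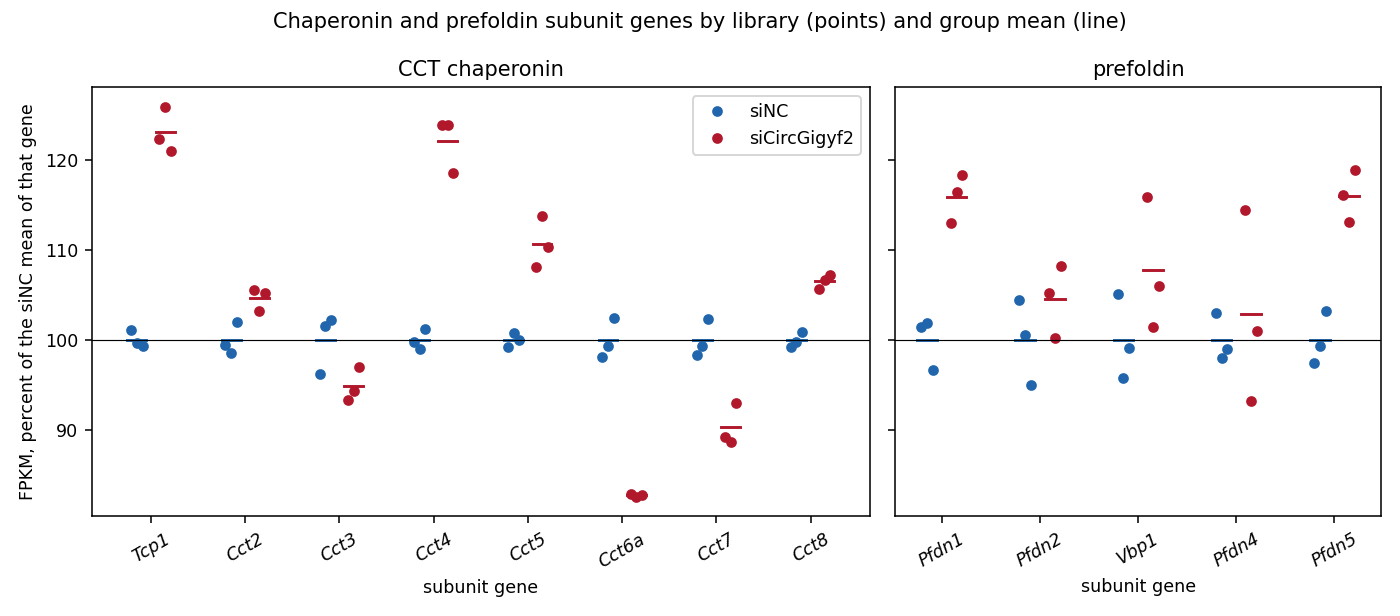
FPKM of the chaperonin and prefoldin subunit genes in each library (points), as a percentage of that gene's siNC mean, with group means as short lines and 100% as the thin line. Tcp1 and Cct4 have the highest treated values among the chaperonin genes and Cct6a the lowest, and the ratio of the means is 1.16 for both Pfdn1 and Pfdn5.

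Of the 5 prefoldin genes, 2 rose and 3 did not pass (40.0% changed, beside 38.2% of all genes tested). Pfdn5 was at 299, 291 and 306 against 251, 256 and 266 FPKM and rose by 0.21 (SE 0.0332, adjusted p = 0.00119). Pfdn1 was at 36.4, 37.5 and 38.1 against 32.7, 32.8 and 31.2 FPKM and rose by 0.21 (SE 0.0352, adjusted p = 0.00188). Both were above every control in all 3 treated libraries. Pfdn2, Vbp1 (the gene of prefoldin subunit PFDN3) and Pfdn4 overlapped between the groups and did not pass, with differences of 0.06, 0.11 and 0.04. Vbp1 passed with the replicate number as a block (adjusted p = 0.0343). Pfdn4 ranged widely among the treated libraries, from 91.8 to 112.6 FPKM, against 96.5 to 101.4 in siNC.

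Among the regulators, the gene of the heat shock factor binding protein rose. Hsbp1, a small coiled-coil protein known to bind heat shock factor 1, was at 156, 145 and 158 against 120.1, 127 and 130 FPKM, with no overlap, and rose by 0.28 (SE 0.0425, adjusted p = 0.00101). Hsf1 itself was at 20.0, 22.5 and 22.7 against 24.6, 22.3 and 24.5 FPKM, with overlap, and its difference of -0.13 did not pass (95% interval -0.26 to 0.0031, adjusted p = 0.112). Hsf2, a related factor active in development, was at 37.6, 38.3 and 38.8 against 36.6, 36.0 and 34.3 FPKM and rose by 0.10 (adjusted p = 0.0489), a call lost in 11 of 14 alternatives, among them any 1 library left out (adjusted p from 0.0574 to 0.168) and the replicate number as a block (0.0888).

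Promoter windows of 300 bases (250 before to 50 after a gene start, RefSeq on GRCm38.p6) were read for 43 of the 52 members, without Hsp90aa1, Hsp90ab1, Hspa8, Hspa13, St13, Ppid, Cct4, Pfdn1 and Hsf1. They were searched for a heat shock element of 3 inverted units, spelled GAANNTTCNNGAA or TTCNNGAANNTTC. Each spelling is the reverse complement of the other, so both strands are covered, and overlapping matches were counted. The element stood in 3 of the 43 genes (6.98%), against 0.662% of 27025 genes. The shorter spellings GAANNTTC and TTCNNGAA stood in 17 of the 43 (39.5%), against 17.0% of all genes. The 3 stretches, and the one between Hspd1 and Hspe1, are shown because their genes include a fall and several that did not pass. Lines read 5' to 3' on the gene's strand, with matches in capitals:
Chordc1 (chr9:18292249-18292299, plus strand): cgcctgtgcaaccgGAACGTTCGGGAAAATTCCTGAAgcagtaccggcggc
Dnajb6 (chr5:29735838-29735878, plus strand): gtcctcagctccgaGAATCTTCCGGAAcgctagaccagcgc
Hsph1 (chr5:149636274-149636314, minus strand): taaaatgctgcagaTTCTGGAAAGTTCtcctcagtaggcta
Hspd1 (chr1:55088045-55088090, minus strand): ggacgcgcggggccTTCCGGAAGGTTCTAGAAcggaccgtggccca

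Chordc1 held 3 overlapping matches at its start site and averaged 26.2 ± 0.547 against 26.3 ± 0.713 FPKM. Dnajb6, with 1 match upstream of its start sites, did not pass either. Hsph1, with 1 match just after its start sites, fell, as given above. The same stretch of chromosome 1 lies in the promoter windows of both Hspd1 and Hspe1, genes of the mitochondrial chaperonin and its co-chaperonin that are read in opposite directions, and held 2 overlapping matches. Hspd1 fell, whereas Hspe1 was at 267, 235 and 256.5 against 241, 237.5 and 241 FPKM, with overlap, and its difference of 0.07 did not pass (adjusted p = 0.222, or 0.0160 without siCircGigyf2 replicate 2). Of 13 tested members with the shorter spellings 2 rose and 5 fell, and of 26 without them 8 rose and 5 fell. Of all genes tested, 19.5% rose and 18.7% fell. The median log2 difference was -0.0092 with the shorter spellings and -0.0038 without them, and no test compared the sets. Members without a promoter window are in neither set. A match is a string of letters and not a measured binding site.

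Other genes of the pathway also included rises and falls. Of 89 listed, 75 were tested, 16 rose and 16 fell (42.7%, beside the 38.2% of all genes), with a median log2 difference of 0.03. Among 13 other J-protein genes tested, 5 rose and 4 fell: the endosomal Dnajc13 rose by 0.36 (adjusted p = 0.000227), and Dnajc8, of the spliceosome, and Dnajc9, a histone chaperone partner, fell by 0.28 and 0.35 (adjusted p = 0.000296 and 0.000439). Of 27 other co-chaperone genes, 6 rose and 6 fell. The NudC-family genes Nudcd2 and Nudcd3 moved apart, with a fall of 0.40 (adjusted p = 5.75e-05) and a rise of 0.28 (adjusted p = 0.000650). Tomm34, of a docking protein for precursors bound for mitochondria, fell by 0.39 (adjusted p = 9.58e-05), from 36.3 ± 1.23 in siNC to 27.5 ± 0.621 FPKM (SD, n = 3).

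Of 13 further chaperonin, prefoldin and tubulin-folding genes, 1 rose and 2 fell (23.1% changed, beside 38.2% of all genes tested). Pdcl, a phosducin-like partner of CCT, fell by 0.33 (adjusted p = 0.000247), and the tubulin-folding cofactor gene Tbcb rose by 0.19 (adjusted p = 0.00493). Tbcel, which encodes a protein similar to tubulin-folding cofactor E, fell by 0.15 (adjusted p = 0.0157), a call lost without siNC replicate 1 (0.0559) or siNC replicate 3 (0.0520). Among 6 other HSP70 and small heat shock genes tested, Hspa12a fell and Hspb6 rose by 0.38 (adjusted p = 0.0120) at 2.79 ± 0.255 against 1.92 ± 0.304 FPKM, whereas Hspb11 (-0.29, adjusted p = 0.129) did not pass, though it did without siNC replicate 3 (0.0361). Of 16 heat shock response genes outside the cytosolic chaperones, 3 rose and 3 fell (37.5% changed, near the share of all genes tested). Hspd1 and the cold-inducible gene Cirbp fell, the latter by 0.56 (adjusted p = 0.000498), and the heme oxygenase gene Hmox1 rose by 0.54 (adjusted p = 0.00235), at 39.6 ± 4.74 against 27.0 ± 2.99 FPKM. Rbm3, another cold-inducible gene, went the other way from Cirbp, at 88.7 ± 4.31 against 79.5 ± 2.23 FPKM. Its rise of 0.155 (adjusted p = 0.0152) was lost in 3 of 14 alternatives, each with a library left out (up to 0.0563).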

How the data were processed

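The authors deposited 1 table of FPKM per gene symbol and library. Per the labels' protocols the RNA was depleted of ribosomal RNA and sequenced as paired reads. The build was mm9, per the submitters' processing notes. Which aligner, quantifier, annotation and strand handling were used was not given in the sources used here. FPKM are relative within a library, and a total RNA change cannot be seen. No 2 libraries shared more than 0.00623% of their values above 0.

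Genes with a mean of at least 1 FPKM were tested as log2(FPKM + 1), by limma 3.58.1 under R 4.3.3 (2 groups, empirical Bayes with a variance trend, two-sided, no covariates), adjusted by Benjamini-Hochberg with a threshold of 0.05. A log2 difference is siCircGigyf2 minus siNC on this scale, which understates changes of low genes. Tables were made with Python 3.11.15 and pandas 2.3.3. On simulated data with normal noise, the test recovered 43.3% of 1.2-fold changes in FPKM + 1, 86.6% of 1.5-fold and 100% of 2-fold ones. There were 7 false calls among 160. Far fewer genes changed there than in the real comparison, so these rates need not hold here.

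The members, the other pathway lists and the sequence motif were chosen with earlier results of these data known. All members are described, and of each other pathway list the 3 genes with the smallest p. Tsc1, Sqstm1, Hspe1 and Rbm3 were named after their values were seen. Alternatives changed the pseudocount (to 0.1), the filter (none, or 5 FPKM), the scaling (quantile or median-of-ratios) or the model (robust fit, constant prior variance, a block on the replicate number), or left out each library. Sites in 3' UTRs were read from GENCODE M21, on GRCm38, in the transcript with the longest coding sequence.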

Additional observations from a re-analysis of the deposited data

How the results depend on the processing

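The number of changed members was 25 in the main comparison and lay between 20 and 27 in the 14 alternatives, and 18 members (8 higher and 10 lower) passed in every one of them. With each library left out in turn it was 20 to 24, the count of all genes 3521 to 3933 and that of the other pathway genes 28 to 30. None of the 25 changed direction in any of these alternatives. Quantile normalization moved the split most, to 9 higher and 15 lower, while the median of all genes stayed at -0.00028. The exact permutation tests of ratios cannot pass the threshold with 3 libraries a group, so they say nothing about stability. With the replicate number as a block, 24 members (13 higher and 11 lower), 3973 genes and 31 other pathway genes passed. Only the number is shared: deviations of same-numbered libraries correlated at 0.16, -0.02 and 0.0025. Values under 1 FPKM rest on few fragments, and Hspa1a, Hspa1b, Hspb1 and Dnaja4 did not pass without a filter either (adjusted p = 0.859, 0.507, 0.316 and 0.458).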
